A study of Mus musculus with 24 samples.

Results

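Ifit1, Ifit2 and Ifit3 are interferon-induced genes that lie side by side on mouse chromosome 19. Their chromatin was read from all ChIP-seq peaks that overlap a fixed window around them, chr19:34580000-34750000 on the mm9 build. This gave 157 of the 756484 peaks in 24 libraries. The rule puts Ifit2 near position 34625000, Ifit3 just after it and Ifit1 at 34715000. An Ifit stretch of 120000 bp, chr19:34615001-34735000, was taken from 10000 bp before the Ifit2 position to 20000 bp after the Ifit1 position, and it held 121 of the 157 peaks. It was split after positions 34670000 and 34705000 into an Ifit2-Ifit3 part, a part between and an Ifit1 part. These are working names, since the places of Ifit3 and of the genes between Ifit3 and Ifit1 on mm9 were not determined. The other peaks lay in an upstream flank (29 peaks) and a downstream flank (7 peaks).

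The libraries came from bone marrow-derived macrophages, grown in culture from marrow of FVB/Hsd mice to day 7 of differentiation, infected with a retrovirus and selected with puromycin. All of them therefore carried a retroviral vector. For H3K4me3 and H3K27ac the groups were a short hairpin against Wdr82 (shWdr82) with LPS, the empty LMP vector with LPS, shWdr82 untreated and empty vector untreated, with LPS for 4 h by the titles. For H3K4me1, H3K36me3, total Pol II (RNA polymerase II in any state) and Ser2P (the elongating form, with phosphate on serine 2 of the C-terminal repeat) the groups were shWdr82 with LPS, a scrambled hairpin with LPS, shWdr82 untreated and scrambled hairpin untreated, with LPS for 45 min by the titles. LPS (lipopolysaccharide, a bacterial cell wall component) was used at 10 ng/ml, and the protocol text speaks of 4 h for all samples. A single code in the titles marks 1 hairpin sequence against Wdr82, the age and number of mice are not stated, and no gene annotation on mm9 was at hand to check macrophage markers or the depletion of Wdr82. Each group had 1 library, so the values below have no replicate error and no test was run.

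The Ifit genes encode cytoplasmic proteins built of tetratricopeptide repeats. Ifit1 binds viral RNA whose cap lacks the methyl groups of host messenger RNA, and in human cells IFIT2 and IFIT3 form complexes with it and with each other. In resting macrophages these genes are expressed at a low level. LPS acts through TLR4 and its adaptor TRIF on the factor IRF3 and on interferon beta, and the secreted interferon then acts on these genes through the interferon-stimulated response element (ISRE) of their promoters. H3K4me3 marks promoters, H3K27ac active promoters and enhancers, H3K4me1 enhancers, and H3K36me3 the bodies of transcribed genes. WDR82 is a subunit of the SET1 complexes that write H3K4me3 and of a complex with the phosphatase regulator PNUTS that acts in transcription termination.

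The promoters are shown because the LPS response of these genes is read through the ISRE, and because the Ifit3 promoter has a near copy in its neighbour Ifit3b. The gene table on GRCm38 orders the protein-coding genes as Lipa, Ifit2, Ifit3, Ifit1bl1, Ifit3b, Ifit1bl2, Ifit1 and Slc16a12. The sequences below are the 250 bases before the annotated start, from RefSeq on GRCm38.p6, all on the plus strand. Ifit1 is at chr19:34640639-34640888, Ifit3 at chr19:34583279-34583528, Ifit3b at chr19:34607707-34607956 and the first of 2 annotated Ifit2 starts at chr19:34550444-34550693, and these positions are not comparable with the mm9 positions of the peaks. Capitals mark matches to the ISRE core, which is GAAA and GAAA with 2 free bases between, or TTTC and TTTC with 2 free bases between when read on the other strand.
Ifit1: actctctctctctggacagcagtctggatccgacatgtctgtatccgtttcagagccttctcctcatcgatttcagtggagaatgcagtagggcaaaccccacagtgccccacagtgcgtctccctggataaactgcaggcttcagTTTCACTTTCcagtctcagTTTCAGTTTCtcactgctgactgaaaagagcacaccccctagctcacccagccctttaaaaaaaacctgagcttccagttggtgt
Ifit3: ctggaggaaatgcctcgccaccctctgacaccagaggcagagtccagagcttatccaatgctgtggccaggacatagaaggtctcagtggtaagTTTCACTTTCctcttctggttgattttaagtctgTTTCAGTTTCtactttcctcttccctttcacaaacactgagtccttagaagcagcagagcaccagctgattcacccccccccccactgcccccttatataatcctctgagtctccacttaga
Ifit3b: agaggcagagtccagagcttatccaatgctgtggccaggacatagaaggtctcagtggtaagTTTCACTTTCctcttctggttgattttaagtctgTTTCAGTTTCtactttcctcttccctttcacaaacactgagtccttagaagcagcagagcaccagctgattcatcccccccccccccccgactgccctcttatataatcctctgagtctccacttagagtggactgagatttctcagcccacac
Ifit2: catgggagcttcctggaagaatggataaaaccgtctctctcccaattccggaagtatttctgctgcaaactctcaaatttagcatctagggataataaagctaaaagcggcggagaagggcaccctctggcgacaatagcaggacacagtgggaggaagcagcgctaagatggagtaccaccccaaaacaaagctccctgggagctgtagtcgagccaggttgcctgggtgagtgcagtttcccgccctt

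Ifit1 had 2 matches, TTTCACTTTC and TTTCAGTTTC, which begin 104 and 85 bases before the start. Ifit3 had the same pair of 10-base matches 156 and 122 bases before its start, and Ifit3b had them 188 and 154 bases before. Neither annotated Ifit2 start had a match in its 250 bases, which says only that these letters are not in that window. A core match was present in 2.98% of all 32851 promoters in the table, and at least 2 matches in 0.180%. Of 24 other interferon-induced genes on a list, 17 were in the table and 7 of them (41.2%) had a match, among them Isg15, a ubiquitin-like modifier, with 3 matches in its promoter and Cxcl10, a chemokine, with 1. For comparison, 3.46% of all genes in the table had a match. An NF-kB-like motif (GGGA and TTCC with 2 free bases between, either strand, 1.21% of promoters) matched once, 247 bases before the first Ifit2 start, and TATAAA on the sense strand (7.59% of promoters) did not match for any of the 3 genes.

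The Ifit3 and Ifit3b promoters are alike over long runs. Their 300-base windows, which add the first 50 bases of the transcript, shared an unbroken run of 169 bases. Of the 36-base words of the Ifit3 window, 54.7% were also in the Ifit3b window. Short reads from such words cannot be placed at 1 of the 2 sites, and how the authors treated reads with several places is not given in the sources used here. Peaks at these 2 sites are therefore uncertain in place and in size. The Ifit1 window overlaps that of an Ifit1bl2 start on the opposite strand, so both hold the same 2 ISRE matches and their marks cannot be told apart.

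**Figure D1:**
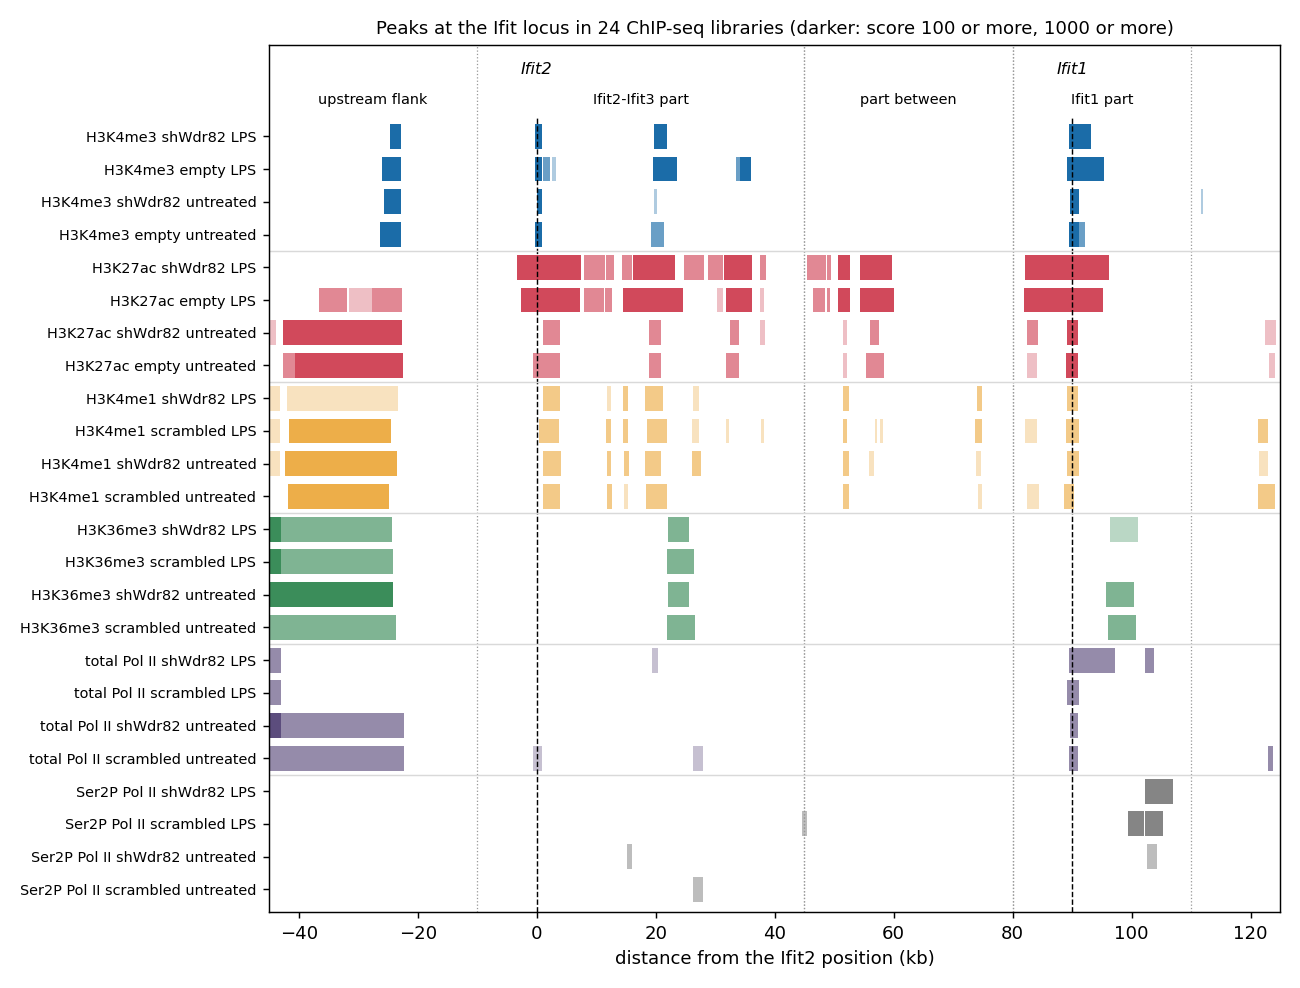
Peaks of the 24 libraries (rows) along the window, as distance from the Ifit2 position of the rule (kb), with darker colours for higher scores and dotted lines between the parts. H3K27ac peaks fill 45.1% to 51.3% of the Ifit stretch in the LPS libraries, against 10.7% to 13.6% in the untreated ones, while the upstream flank goes the other way.

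H3K27ac spread in all 3 parts of the Ifit stretch after 4 h of LPS, in both vectors. Peaks covered 61570 bp in the shWdr82 LPS library and 54061 bp in the empty vector LPS library, against 12894 bp in shWdr82 untreated and 16312 bp in empty vector untreated cells. The LPS libraries thus covered 4.78 times the untreated length in shWdr82 cells and 3.31 times in empty vector cells. Both LPS values lie far above both untreated values. A change of at least 2 times upwards was also seen in 15.7% (shWdr82) and 21.2% (empty vector) of all tiles of the same length with at least 5000 bp covered in either library, so that a rise of this kind was common across the genome. Over such tiles with a peak in both libraries the median log2 ratio was -0.12 in shWdr82 and 0.11 in empty vector cells, against 2.26 and 1.73 for the Ifit stretch.

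The gain was in width and in score, and it touched every part of the stretch. Around the Ifit2 position, 1 H3K27ac peak of 10835 bp in shWdr82 LPS and 1 of 9956 bp in empty vector LPS cells stood where the untreated libraries had peaks of 2889 bp and 4492 bp. Scores there were 3100 in both LPS libraries, against 160 in shWdr82 untreated and 564 in empty vector untreated cells. The score is the one the authors' peak caller gave each peak. It ran from 50 to a ceiling near 3100. Read depth is not known, so scores of different libraries are set side by side as a description, with the share of each library's own list at or above the score for the main sites. That share was 12.2% in shWdr82 LPS and 14.6% in empty vector LPS cells, against 75.0% in shWdr82 untreated and 47.6% in empty vector untreated cells. At Ifit1, a peak of 14234 bp in shWdr82 LPS and of 13292 bp in empty vector LPS cells, the widest H3K27ac peak of the stretch in each library, stood in place of pairs of peaks with summed widths of 3640 bp and 3815 bp in the untreated libraries. The score reached 3100 with LPS in both vectors, against 1085 in shWdr82 untreated and 1404 in empty vector untreated cells. The untreated scores were within the top 37.3% of the shWdr82 list and the top 29.6% of the empty vector list, so Ifit1 ranked first among the sites of the stretch in both untreated libraries. Between 31.6 kb and 36.2 kb after the Ifit2 position, at a further site of the Ifit2-Ifit3 part, the widths were 4644 bp and 4403 bp with LPS, against 1592 bp and 2179 bp without.

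Of the 12 merged H3K27ac regions of the stretch, 6 were held by all 4 libraries and 4 by both LPS libraries alone. Across the genome, 12.4% of merged regions were held by both LPS libraries alone and 44.0% by all 4. None of the 12 was held by both untreated libraries alone, a pattern of 15.8% of regions genome-wide. The 4 gained regions began 8.0, 28.8, 45.4 and 48.7 kb after the Ifit2 position and had scores between 96.2 and 323, below the 3100 that the 6 regions held by all 4 libraries reached with LPS. The gene table on GRCm38 has Ifit1bl1, Ifit3b and Ifit1bl2 between Ifit3 and Ifit1. In the part between, peaks covered 11352 bp in shWdr82 LPS and 10255 bp in empty vector LPS cells, against 2024 bp and 3813 bp in the same vectors untreated. The region at chr19:34649708-34653156, with a score of 735, was held by the shWdr82 LPS library alone, and 18.8% of all H3K27ac regions were held by 1 library.

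The 2 vectors differed less in H3K27ac than the treatments did. The shWdr82 library covered 1.14 times the length of the empty vector library with LPS and 0.790 times untreated, and neither passed the 2-fold line. With LPS, 1.09% of tiles were at least 2 times higher and 2.68% at least 2 times lower in shWdr82 cells. At Ifit1 the ratios were 1.07 with LPS and 0.954 untreated.

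**Figure D2:**
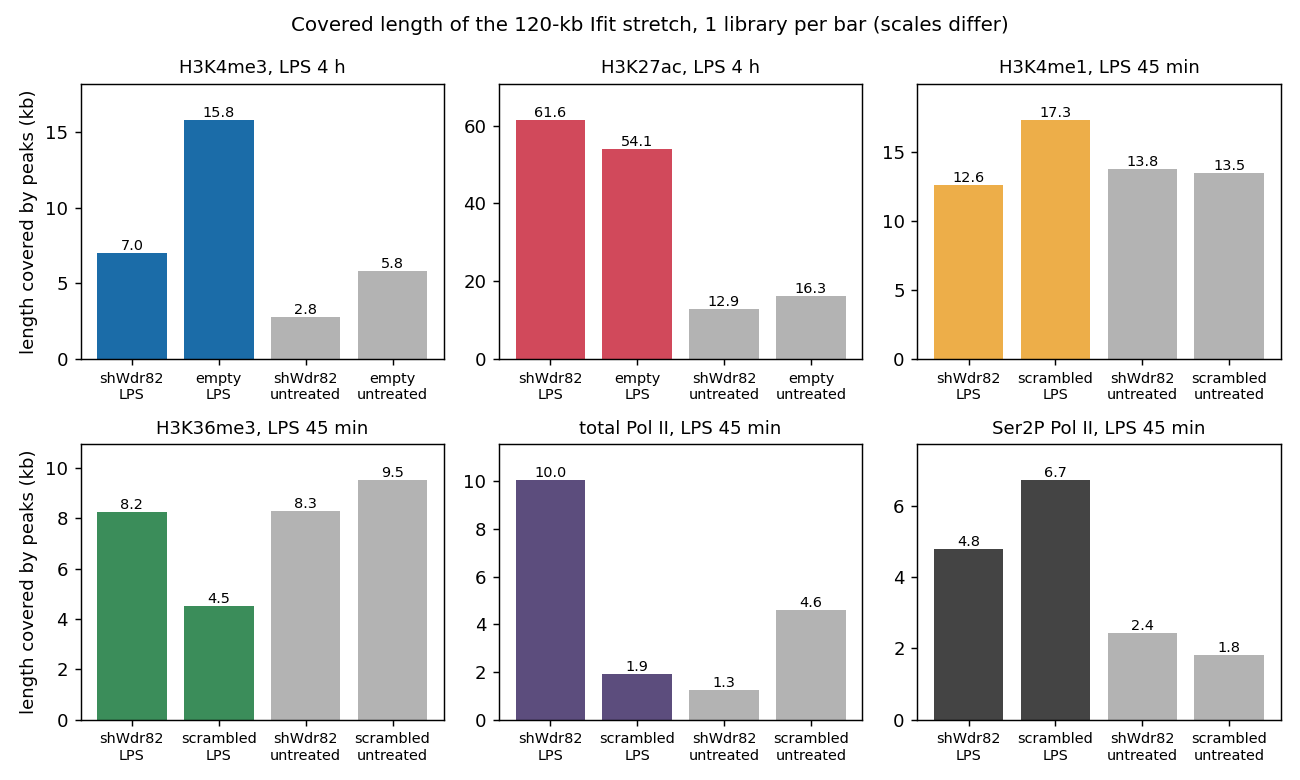
Length of the 120000-bp Ifit stretch covered by peaks (kb, vertical axes from 0, scales differ), 1 bar per library, coloured with LPS and grey untreated. H3K4me3 and H3K27ac are higher with LPS in both vectors, and H3K4me3 is lower in shWdr82 cells in both treatments.

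H3K4me3 also widened with 4 h of LPS, and it was narrower in shWdr82 cells with and without LPS. Peaks covered 7045 bp of the stretch in the shWdr82 LPS library and 15844 bp in the empty vector LPS library, against 2813 bp in shWdr82 untreated and 5828 bp in empty vector untreated cells. The LPS library covered 2.50 times the untreated length in shWdr82 and 2.72 times in empty vector cells. The empty vector LPS length includes peaks of 1243, 665, 682 and 1719 bp that no other library held. Among tiles with at least 5000 bp covered in either library, 0.433% were at least 2 times higher in shWdr82 and 0.885% in empty vector cells. Among tiles with any peak the shares were larger, 7.09% in shWdr82 and 3.63% in empty vector cells. In shWdr82 cells the Ifit stretch itself reached 5000 bp only in the LPS library. The median tile had a log2 ratio of 0.13 in shWdr82 and -0.13 in empty vector cells, against 1.32 and 1.44 for the Ifit stretch.

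Against the empty vector, shWdr82 cells had 0.445 times the H3K4me3 length with LPS and 0.483 times untreated. With LPS, part of this difference lay in the peaks that the empty vector LPS library alone held. At the sites shared by all 4 libraries, widths in shWdr82 and empty vector LPS cells were 1199 and 1282 bp, 2283 and 3941 bp, and 3563 and 6312 bp. Each of these pairs was less than 2-fold apart. Among tiles with at least 5000 bp in either library, values at least 2 times lower were found in 2.18% with LPS and in 3.25% untreated. Among tiles with any peak the shares were 3.07% with LPS and 6.28% untreated. The untreated comparison stood on a general shift: the median tile was at -0.29 on the log2 scale, and the median H3K4me3 peak was 1187 bp wide in the shWdr82 untreated library and 1526 bp in the empty vector untreated library. With LPS that shift was small, at -0.02 for the median tile and 1430 bp against 1470 bp for the median peak, and the Ifit stretch was at -1.17. Read depth is unknown, and its part in this difference was not tested.

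H3K4me3 peaks of the 4 libraries merged into 7 regions in the stretch, of which 3 were held by all 4 libraries and 4 by the empty vector LPS library alone. Genome-wide, 71.4% of H3K4me3 regions were held by all 4 libraries, 15.4% by 1 library and 2.58% by the empty vector LPS library alone. Peaks were merged only where they shared a base, so neighbouring peaks counted apart. Those at chr19:34658442-34659123 and chr19:34659233-34660951 lie side by side, and the others of the 4 directly follow the peak at the Ifit2 position. The 3 shared sites behaved unequally. The peak at the Ifit2 position, within chr19:34624643-34625947, was called in all 4 libraries and was 1199 bp wide in shWdr82 LPS, 1282 bp in empty vector LPS, 902 bp in shWdr82 untreated and 1292 bp in empty vector untreated cells. Its scores were 1087 and 1372 in the LPS libraries and 2447 and 1929 in the untreated ones, for shWdr82 and empty vector. It was the site with the least change in width, and its scores were lower with LPS in both vectors. Within the lists they stood in the top 59.4% in shWdr82 LPS and 58.3% in empty vector LPS cells, against 47.4% in shWdr82 untreated and 53.1% in empty vector untreated cells. The empty vector LPS library also had 2 small peaks directly after it, of 1243 bp and 665 bp with scores of 233 and 50.9, that no other library held.

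A further H3K4me3 site lay 19.2 kb after the Ifit2 position, within chr19:34644250-34648506. Ifit2 is annotated with a length of 25985 bp on GRCm38, so the site would fall inside a span of that length, but its place relative to Ifit2 on mm9 was not determined. It measured 2283 bp in shWdr82 LPS and 3941 bp in empty vector LPS cells, against 510 bp in shWdr82 untreated and 2068 bp in empty vector untreated cells. Scores were 1584 and 3100 with LPS, and 62.6 and 893 without, so the weakest call was that of shWdr82 untreated cells, where 94.1% of the list scored as high or higher. Here the LPS libraries of each vector exceeded the untreated ones, and shWdr82 lay below the empty vector in both treatments. H3K36me3, the mark of transcribed gene bodies, was called next to this site, within chr19:34646845-34651687, in all 4 of its libraries. Its peaks overlapped the H3K4me3 peak of the empty vector LPS library, which ended at 34648506. The H3K4me3 peaks of the untreated libraries ended before them, at 34645154 (shWdr82) and 34646317 (empty vector). In shWdr82 LPS cells the H3K4me3 peak ended at 34646950, and the shWdr82 H3K36me3 peaks began at 34647011 with LPS and 34646999 untreated.

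At the far end of the Ifit2-Ifit3 part, H3K4me3 was called in the empty vector LPS library alone. A peak of 1719 bp with a score of 1121 lay at chr19:34659233-34660951, with a smaller one of 682 bp and a score of 127 just before it. The shWdr82 LPS library and both untreated libraries had no peak there. H3K27ac peaks spanned both of these H3K4me3 peaks in the shWdr82 LPS and the empty vector LPS library, each with a score of 3100. The untreated H3K27ac peaks ended at 34659009 (shWdr82) and 34658976 (empty vector). They thus reached the smaller H3K4me3 peak but not the larger one. Whether this site is the start of Ifit3, which the rule puts just after Ifit2, was not determined. No H3K4me3 peak was called in the part between in any library.

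At Ifit1 the H3K4me3 peaks had summed widths of 3563 bp in shWdr82 LPS and 6312 bp in empty vector LPS cells, against 1401 bp in shWdr82 untreated and 2468 bp in empty vector untreated cells. The LPS width was 2.54 times the untreated width in shWdr82 and 2.56 times in empty vector cells, and the shWdr82 width was 0.564 times the empty vector width with LPS and 0.568 times untreated. Both ratios between vectors were thus nearly the same in the 2 treatments. The empty vector LPS peak, chr19:34714078-34720389, was the widest H3K4me3 peak of the stretch, and the added width lay mostly after the Ifit1 position: the last peak ended at 34718098 in shWdr82 LPS and 34720389 in empty vector LPS cells, against 34716058 in shWdr82 untreated and 34717071 in empty vector untreated cells. Its highest scores were 2676 and 3100 with LPS, and 1043 and 3100 without, in shWdr82 and empty vector cells. A score of 3100 was shared by 44.1% to 47.7% of all H3K4me3 peaks of a library, so scores at this ceiling rank nothing.

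**Figure D3:**
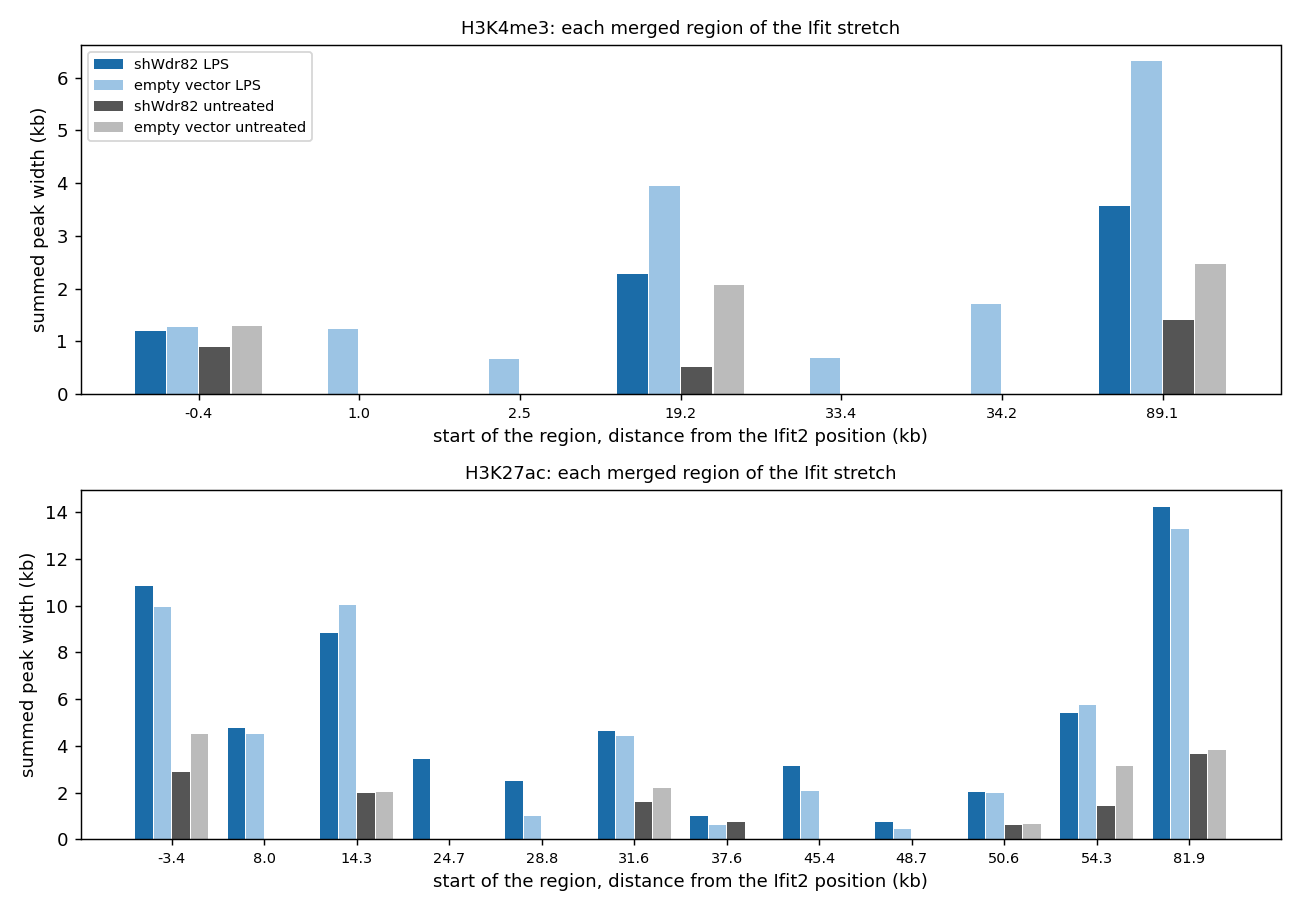
Summed peak width (kb) at each merged H3K4me3 region (top) and H3K27ac region (bottom) of the Ifit stretch, by start of the region in kb from the Ifit2 position, 1 bar per library. For H3K4me3 the empty vector LPS bars reach 3941 bp at 19.2 kb and 6312 bp at 89.1 kb, above the other 3 libraries, whereas the bars at the Ifit2 position range from 902 bp to 1292 bp.

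**Figure D4:**
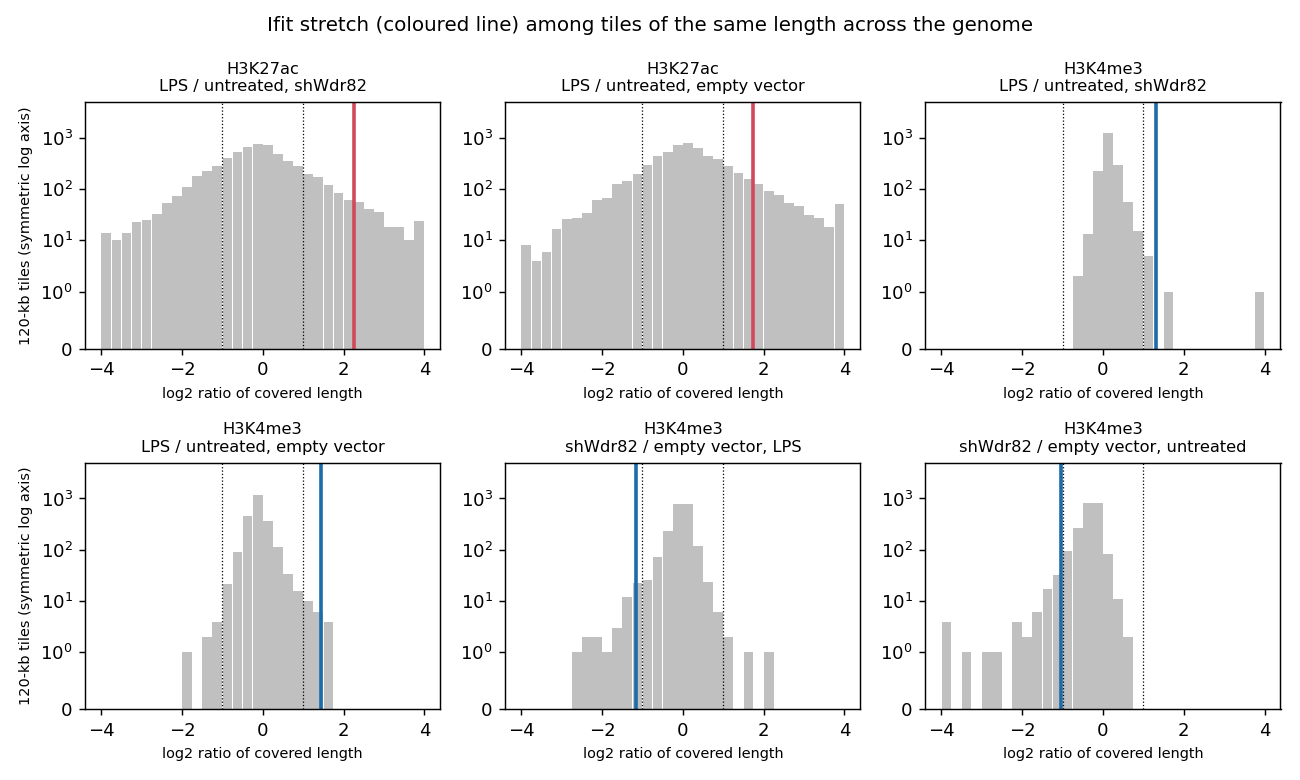
Numbers of 120000-bp tiles across the genome (symmetric log axis) by log2 ratio of covered length, for tiles with a peak in both libraries and at least 5000 bp in either, with values beyond 4 or -4 placed in the outer bins. The coloured line is the Ifit stretch and dotted lines mark 2-fold: H3K4me3 with LPS lies at 1.32 (shWdr82) and 1.44 (empty vector), where few tiles lie, and H3K27ac at 2.26 and 1.73 within a wide distribution.

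Polymerase at Ifit1 was called in every total Pol II library, and it reached furthest past the Ifit1 position in shWdr82 cells after 45 min of LPS. The peak at the Ifit1 position, within chr19:34714166-34716098, had scores of 423 in shWdr82 LPS, 247 in scrambled LPS, 216 in shWdr82 untreated and 123 in scrambled untreated cells. These scores were within the top 34.6%, 45.7%, 49.6% and 63.3% of the lists in the same order. Its widths were 1560, 1918, 1252 and 1368 bp in the same order. In the shWdr82 LPS library a further peak of 5931 bp (score 125) ran on from it over chr19:34716179-34722109, and another of 1540 bp (score 100.1) lay 12.2 kb after the Ifit1 position. Neither was called in another library, and both were weak, with 63.7% and 71.2% of the shWdr82 LPS list scoring as high or higher. Of the 6 total Pol II regions of the stretch, 1 was held by all 4 libraries (28.8% genome-wide) and 5 by 1 library (35.3% genome-wide). In the Ifit1 part, total Pol II thus covered 9031 bp in shWdr82 LPS and 1918 bp in scrambled LPS cells, against 1252 bp in shWdr82 untreated and 1368 bp in scrambled untreated cells.

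Over the whole stretch, total Pol II covered 10044 bp in shWdr82 LPS and 1918 bp in scrambled LPS cells, 5.24 times as much, and 13.8% of tiles were at least 2 times higher in that comparison. In shWdr82 cells the LPS length was 8.02 times the untreated length of 1252 bp (18.8% of tiles at least 2 times higher). In scrambled cells the LPS length of 1918 bp was 0.415 times the untreated 4624 bp, as in 41.5% of tiles with any peak in either library. Untreated, shWdr82 covered 0.271 times the scrambled length (10.9% of tiles with any peak at least 2 times lower). These 2 lower values rest on weak peaks of the scrambled untreated library, at the Ifit2 position (score 93.0) and at chr19:34651197-34652946 (score 94.0). Among peaks with a score of at least 100, or with lists of equal size, both weak peaks dropped out. Scrambled cells then had 1918 bp with LPS and 1368 bp untreated, and the ratio of shWdr82 to scrambled untreated was 0.915. A weak peak at chr19:34644365-34645377, at the H3K4me3 site 19.2 kb after the Ifit2 position, was called with a score of 58.3 in the shWdr82 LPS library alone.

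Elongating polymerase was called in the Ifit1 part only from 9.3 kb after the Ifit1 position onwards. The end of Ifit1 on mm9 was not determined. The Ser2P region chr19:34727196-34731981 began 12.2 kb after the Ifit1 position, beyond the 9121 bp that Ifit1 spans in the gene table on GRCm38, and was held by 3 of 4 libraries. Its peak was 4772 bp wide with a score of 825 in shWdr82 LPS, 3093 bp with 495 in scrambled LPS and 1586 bp with 91.2 in shWdr82 untreated cells, and none was called in scrambled untreated cells. Both LPS libraries had the higher scores, among the top 19.9% and 22.3% of their lists. The scrambled LPS library had another Ser2P peak directly before it, chr19:34724319-34727124, with a score of 276. The total Pol II peak that only the shWdr82 LPS library had there, chr19:34727215-34728754, lay within this Ser2P region.

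In all, Ser2P covered 4772 bp of the stretch in shWdr82 LPS and 6709 bp in scrambled LPS cells, against 2427 bp in shWdr82 untreated and 1821 bp in scrambled untreated cells. LPS over untreated was 1.97 times in shWdr82 cells, just under 2-fold, and 3.68 times in scrambled cells (16.1% of tiles at least 2 times higher). Among peaks with a score of at least 100, no Ser2P peak was left in either untreated library. The Ifit2 to Ifit3 part held only weak Ser2P peaks, with scores of 69.2 in scrambled LPS, 55.9 in shWdr82 untreated and 93.3 in scrambled untreated cells, each in 1 library, and none in the shWdr82 LPS library. Of the 5 Ser2P regions of the stretch, 4 were held by 1 library, against 63.8% genome-wide, and 2 of these by the scrambled LPS library, against 11.8%.

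H3K36me3 formed 2 regions, 1 of them held by all 4 libraries (61.6% genome-wide). That region, after the 19.2-kb site, had widths of 3574 bp in shWdr82 LPS, 4536 bp in scrambled LPS, 3567 bp in shWdr82 untreated and 4833 bp in scrambled untreated cells, and was narrower in shWdr82 cells in both treatments. The region at the far end of Ifit1, within chr19:34720612-34725991, had scores of 84.8 in shWdr82 LPS, 111 in shWdr82 untreated and 706 in scrambled untreated cells, and no peak in scrambled LPS cells. Within their lists these stood in the top 86.8%, 80.5% and 42.8%. This single missing call took the scrambled LPS length of the stretch to 4536 bp, against 9508 bp in scrambled untreated cells, or 0.477 times (5.60% of tiles at least 2 times lower). In shWdr82 cells the lengths were 8233 bp with LPS and 8294 bp untreated, but with a score of at least 100 the LPS length was 0.431 times the untreated one, because the Ifit1 peak was then left out. No H3K36me3 peak lay in the part between.

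H3K4me1 was already present in untreated cells and, over the whole stretch, changed by less than 2-fold in all 4 comparisons. It covered 12637 bp in shWdr82 LPS and 17345 bp in scrambled LPS cells, against 13794 bp in shWdr82 untreated and 13455 bp in scrambled untreated cells. In the Ifit1 part alone, H3K4me1 covered 2011 bp in shWdr82 LPS and 4128 bp in scrambled LPS cells, or 0.487 times. Of the 14 merged H3K4me1 regions of the stretch, 7 (against 52.8% genome-wide) were held by all 4 libraries. These included the sites around the Ifit2 position, 18.2 kb after it and at Ifit1, with highest scores of 330, 586 and 375 in shWdr82 LPS and 279, 667 and 450 in scrambled LPS cells. They also included 2 sites of the part between, chr19:34676488-34677532 and chr19:34698738-34699845. The region chr19:34707077-34709357, before Ifit1, was held by both scrambled libraries alone with scores of 93.1 with LPS and 68.2 untreated, and 4.63% of all H3K4me1 regions had this pattern. Since those scores are under 100, the call ended with the stricter threshold. Of the 5 regions held by 1 library (19.1% genome-wide), 4 were in scrambled LPS cells (5.17% genome-wide), among them chr19:34656825-34657367, and these 4 had scores of at most 82.2.

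The upstream flank, on the side of Lipa, which encodes the lysosomal acid lipase, had less H3K27ac and less total Pol II with LPS in both vectors. H3K27ac covered no base of it in shWdr82 LPS and 13636 bp in empty vector LPS cells, against 21123 bp in shWdr82 untreated and 20108 bp in empty vector untreated cells. Its highest H3K27ac score was 647 in empty vector LPS cells, against 3100 in both untreated libraries. Total Pol II covered 2005 bp in shWdr82 LPS and 1996 bp in scrambled LPS cells, against 22609 bp and 22630 bp in the same vectors untreated, so that the 2 vectors had nearly the same length in either treatment. Such falls were common across the genome. Among 120000-bp tiles with any peak, total Pol II was at least 2 times lower with LPS in 40.9% (shWdr82) and 41.5% (scrambled). For H3K27ac the shares were 22.9% (shWdr82) and 18.3% (empty vector). The flank is shorter than these tiles, and its H3K27ac ratio in empty vector cells, 0.678, did not reach 2-fold. H3K36me3 stayed between 20644 bp and 21317 bp in its 4 libraries, and H3K4me1 between 17079 bp and 20744 bp. An H3K4me3 peak with a score of 3100 stood in all 4 libraries, with 1785 bp in shWdr82 LPS, 3249 bp in empty vector LPS, 2699 bp in shWdr82 untreated and 3533 bp in empty vector untreated cells. As at the Ifit genes, it was narrower in shWdr82 cells in both treatments. No Ser2P peak was called in the flank in any library. With the flanks included, that is over the whole window, 7 of the 12 calls made on the stretch no longer held. LPS over untreated covered length was then 1.72 times in shWdr82 and 1.81 times in empty vector cells for H3K27ac, 1.49 times in shWdr82 cells for H3K4me3, 0.820 times in scrambled cells for H3K36me3 and 0.505 times in shWdr82 cells for total Pol II. Untreated shWdr82 over control was 0.632 times for H3K4me3 and 0.851 times for total Pol II. The H3K27ac and Pol II times differ (4 h and 45 min), so they are not set against each other.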

How the data were processed

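The 24 ChIP-seq libraries cover 6 antibodies, with 1 library per vector and treatment. The deposited files are peak lists, 1 per library. Per the submitters' processing notes, Bowtie 0.12.7, MACS 1.4 and the mm9 build were used; the sources used here do not give parameters or input, and the lists carry no counts, so read depth is unknown. The score of each peak (50 to 3233) is the authors' own deposited value, as are peak borders, and scores of different libraries were compared only as a description, beside the share of the library's list at or above them. Lists held 14420 to 65149 peaks. Starts were taken as counted from 0 and are printed counted from 1.

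Peaks overlapping the window were the members, and the members, stretches and lists were chosen with earlier results of these data known. Covered length is the union of peaks clipped to a stretch. A difference was called at 2-fold or presence against absence. Peaks of 4 libraries were merged where they shared at least 1 bp. The background was all tiles of 120000 bp with a peak, or with at least 5000 bp, in either library, and all merged regions. Named peaks were the highest-scoring and the widest of each part and those held by 1 side, plus 1-library peaks chosen after their values were seen. Motifs were searched in 250 bases before RefSeq starts (GRCm38.p6). Merging was tested on simulated data. Alternatives were a score of at least 100, equal numbers of top-scoring peaks, the whole window and an overlap of at least 50% of the shorter peak. Python 3.11.15 and numpy 2.4.6 were used. Each antibody was compared within its own libraries, since control vector and LPS time differ, and any spread between cultures is unknown.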

Additional observations from a re-analysis of the deposited data

Results flagged for a closer look

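In these pairs the covered length of the Ifit stretch moved in opposite directions in 2 groups; each group has 1 library and none of the differences was tested. For total Pol II, LPS minus untreated was 8792 bp in shWdr82 and -2706 bp in scrambled cells, and shWdr82 minus scrambled was 8126 bp with LPS and -3372 bp untreated. For H3K27ac, shWdr82 minus empty vector was 7509 bp with LPS and -3418 bp untreated. For H3K4me1, LPS minus untreated was -1157 bp in shWdr82 and 3890 bp in scrambled cells, and shWdr82 minus scrambled was -4708 bp with LPS and 339 bp untreated. For H3K36me3, shWdr82 minus scrambled was 3697 bp with LPS and -1214 bp untreated, the first of which rests on the missing Ifit1 peak of the scrambled LPS library. With a score of at least 100 the LPS difference was -962 bp, so that both H3K36me3 differences were then negative. For Ser2P, shWdr82 minus scrambled was -1937 bp with LPS and 606 bp untreated.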

How the results depend on the processing

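Of 24 comparisons of covered length, 12 passed 2-fold. Of these, 10 did so in the same direction with a score of at least 100 and with equal numbers of peaks, and 5 with the whole window, whose upstream flank adds length. Total Pol II in scrambled cells, LPS minus untreated, was 550 bp with a score of at least 100 and with equal numbers (against -2706 bp) and -24116 bp over the whole window. In shWdr82 cells it was -11812 bp over the whole window (against 8792 bp). Over the whole window H3K27ac was -6127 bp for shWdr82 minus empty vector with LPS (against 7509 bp), and 25681 bp for LPS minus untreated in shWdr82 cells (against 48676 bp). For H3K36me3 in shWdr82 cells, LPS minus untreated was -4720 bp with a score of at least 100 (against -61 bp), and shWdr82 minus scrambled with LPS was -962 bp (against 3697 bp). With that threshold, the regions held by both LPS libraries alone were 1 for H3K4me1 and 1 for Ser2P (0 before), those of both untreated libraries alone 1 for H3K36me3 (0 before), and those of both scrambled libraries alone 0 for H3K4me1 (1 before). Equal numbers left these counts of regions as they were, and with the stricter overlap the H3K27ac regions held by both LPS libraries alone were 5 in place of 4. No paired analysis was possible because each group has 1 library. Depth is unknown and no replicate can be left out.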

Other observations

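The downstream flank, on the side of Slc16a12, held 7 weak peaks with scores of at most 171. H3K27ac was called there in both untreated libraries (68.4 in shWdr82 and 64.3 in empty vector cells) and in neither LPS library. H3K4me1 was called in scrambled LPS, shWdr82 untreated and scrambled untreated cells, total Pol II in scrambled untreated cells alone (score 145), and H3K4me3 in shWdr82 untreated cells alone (score 54.3).

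Among the other Ifit genes, both annotated starts of Ifit1bl1 had an ISRE core match (TTTCATTTTC), 23 and 104 bases before the start, together with TATAAA. Of the 2 annotated Ifit1bl2 starts, the one next to Ifit1 had the 2 matches it shares with Ifit1, and the other had none but had TATAAA 30 bases before the start.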
